A study of Mus musculus with 140 samples.

Results

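Gene expression in mouse embryonic stem cells was followed over 8 matched days after knockdown of the transcription factor Tbx3. The samples were chosen by their labels: the 8 samples of the Tbx3 shRNA course (days 0 to 7) and the 8 samples of the empty vector course on the same days, 16 of the 70 samples of the series. All cells were of the male CCE line, from strain 129/Sv, and were grown with LIF (leukaemia inhibitory factor, the cytokine that holds these cells in self-renewal) at 1000 units per ml. The Tbx3 group was transduced with a vector for a short hairpin RNA against Tbx3, and the reference group with the H1P vector without a hairpin. GFP-positive transduced cells were sorted each day, day 0 falling 48 hours after transduction, when cells were also replated in 10 cm dishes. Both arrays of the mouse 430 set, A and B, were used for every sample, which gave 32 of the 140 arrays. The labels give 1 sample per day and course, name no repeated transduction and do not tell hairpins apart. P-values of the fitted curves thus reflect only how far samples scatter from curves drawn through the days, a scatter that may be technical. No p-value here covers variation between repeated transductions. A sorted sample is a bulk RNA pool, in which fewer cells of a type and less RNA per cell cannot be told apart.

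Tbx3 is a T-box transcription factor that in mouse embryonic stem cells belongs to the network of naive pluripotency, together with Nanog, Esrrb, Tcl1, Tfcp2l1 and the core factors Pou5f1 (Oct4) and Sox2. It is mostly known as a repressor that binds DNA through its T-box, and in these cells it is placed downstream of LIF and phosphoinositide 3-kinase signalling. When naive cells leave self-renewal they can pass through a state that resembles the primed epiblast, with Lef1, Otx2, Pou3f1, Fgf15 and Dnmt3b switched on, or take up features of extraembryonic lineages such as keratin filaments of trophectoderm.

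Across the 16 samples the median signal per A array lay between 241.05 and 330.9. On B it ran from 69.7 to 85.7 under Tbx3 shRNA and from 80.9 to 105.6 in the empty vector, and the highest A median was that of the empty vector on day 0. Differences of the 100 control probe sets that both arrays share gave an SD of 0.176 per array on the log2 scale. Markers of embryonic stem cells (Pou5f1, Sox2, Nanog, Zfp42, Dppa5a, Tdgf1) were all above the table median in both groups, with a summed signal of 69440 to 92980 under Tbx3 shRNA and 79310 to 98030 in the empty vector.

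The targeted gene was examined first. With the probe set chosen for Tbx3, the signal was 652, 108, 87.5, 11.3, 104, 124, 188 and 191 on days 0 to 7 under Tbx3 shRNA, and 1639, 1044, 954, 668, 1016, 1430, 1201 and 1588 in the empty vector. Tbx3 was lower on 8 of 8 days and the groups did not overlap, with the smallest gap on day 0 and the largest on day 3. The mean was 183 ± 198 against 1193 ± 338 (SD, n = 8 days), 7.80-fold lower on the log2(signal + pseudocount) scale used for every fold change here. An exact two-sided permutation test that flips signs gave p = 0.00781, the lowest value possible with 8 days. It takes the days of 1 course per group as independent pairs, so its p does not cover repeated transductions. By day the log2 difference was -1.30 on day 0, -3.04 on day 1 and -4.38 on day 3, and between -3.32 and -2.54 from day 4 on. A probe set of the A array gave 325 ± 122 against 1163 ± 256.1 (SD, n = 8 days), 3.24-fold lower with the same p in the exact sign-flip permutation test and a day 0 difference of -1.85, within the range of the later days. The other 3 Tbx3 probe sets had mean signals of 73.4 or less in the empty vector and were 1.16- to 1.40-fold lower (exact permutation p = 0.0234, 0.0625 and 0.0234).

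Many genes were at least 2-fold from the empty vector from the first day on. Of 14749 genes, 282 were at least 2-fold higher and 1148 lower on day 0 (9.7% in all), and the share was 7.77% on day 1, 8.52% on day 2, 9.21% on day 3, 8.52% on day 4, 10.2% on day 5, 11.6% on day 6 and 11.2% on day 7. On day 3 more genes were higher (796) than lower (563), and on day 7 fewer (595 against 1058). The balance of directions depended on the scaling: after quantile normalization 513 genes were higher and 537 lower on day 0, 665 and 651 on day 3, and 796 and 753 on day 7, where the majority turned. These are differences between 2 single samples. Adjacent days of the empty vector course differed at least 2-fold in 5.47% to 8.31% of genes from day 1 on, but in 10.2% between days 0 and 1, when 1163 genes were lower on day 1 and 336 higher. Adjacent days of the Tbx3 course differed in 5.43% to 7.15% of genes. The median log2 difference over all genes was -0.21 on day 0, against -0.10 to 0.07 on the other days.

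**Figure D1:**
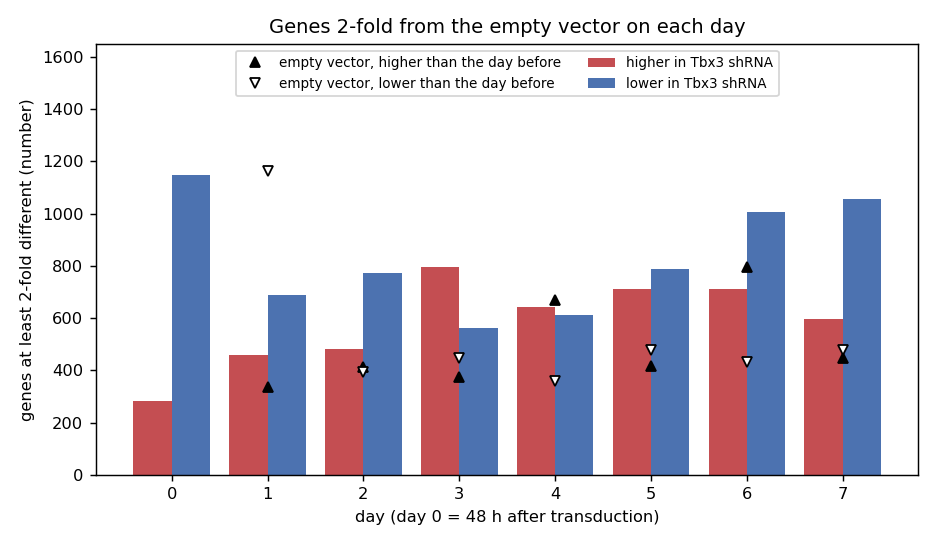
Number of genes (vertical axis) at least 2-fold higher (red bars) or lower (blue bars) under Tbx3 shRNA than in the empty vector on each day (horizontal axis), 1 sample per bar; triangles (filled for higher, open for lower) give the same counts for the empty vector against its own previous day. On the deposited scale lower genes outnumber higher ones on day 0 (1148 against 282) and the reverse holds on day 3 (796 against 563), while quantile normalization gives 537 against 513 and 665 against 651. The empty vector itself had 1163 genes lower on day 1 than on day 0.

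The tests used curves fitted through the days of each course and compared their means over windows of days (limma, Benjamini-Hochberg adjusted p under 0.05). Over the whole course 1411 of 14749 genes were higher (9.57%) and 1876 lower (12.7%), of which 102 and 134 by at least 2-fold; without day 0 of both courses 1758 genes were called in all, against 3287. On days 0 and 1 the test called 134 genes higher (0.909%) and 287 lower (1.95%). On days 2 and 3 it called 629 higher (4.26%) and 337 lower (2.28%), and on days 4 to 7 it called 1093 higher (7.41%) and 1242 lower (8.42%), of which 233 and 212 by at least 2-fold. Of the genes called on days 0 and 1, 229 were also called on days 4 to 7, 228 of them in the same direction, and 2106 genes were called on days 4 to 7 but not on days 0 and 1. The windows hold 2, 2 and 4 days, so the counts do not compare sizes of effect between windows. After quantile normalization the split was 160 higher and 141 lower on days 0 and 1 and 447 higher and 405 lower on days 2 and 3; this scaling moved the median of all genes on days 0 and 1 from -0.16 to 0.01. Without the day 0 sample of the empty vector only 9 genes were called on days 0 and 1, and without that of the Tbx3 course 48. Of 45 early differences of genes named by rule, 2 held when each sample of either course was left out in turn. The middle count was 402 without Tbx3 day 2, 514 without empty vector day 2 and 572 without Tbx3 day 3. The late count was 1266 without Tbx3 day 7 (648 higher and 618 lower), 1533 without Tbx3 day 5 (870 and 663) and 1514 without empty vector day 7 (810 and 704). The majority of lower genes turned in each of these. Without empty vector day 6 it was 1577 (781 and 796).

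Onset was described gene by gene as the first day on which that day and the next were both at least 1.5-fold from the empty vector in the direction of the course mean. Among the 3764 genes called in any window or over the course, 1631 were higher and 2133 lower. Of the higher genes 138 had their onset on day 0, 187 on day 1, 202 on day 2, 159 on day 3, 66 on day 4, 143 on day 5 and 106 on day 6, and 630 had none. Of the lower genes 439 had their onset on day 0 and 94 to 202 on each later day, and 831 had none. On the deposited scale day 0 thus held 13.8% of the onsets of higher genes and 33.7% of those of lower genes. Onsets were not recomputed after quantile normalization, which made the day 0 counts of 2-fold genes nearly even (513 higher and 537 lower). Whether the difference between directions depends on the scaling was not tested.

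Khdc3, which encodes a protein of the maternal complex of oocytes and early embryos, fell throughout. Its signal was 1294, 849, 706, 585, 884, 522, 862 and 1294 on days 0 to 7 under Tbx3 shRNA and 2601, 2669, 3257, 3593, 4122, 4388, 4288 and 4909 in the empty vector, which was lowest on day 0 and highest on day 7. All 8 days were lower and the groups did not overlap. The log2 difference was -1.32 ± 0.21 (SE) on days 0 and 1, -2.29 ± 0.20 on days 2 and 3 and -2.39 ± 0.15 on days 4 to 7 (adjusted p = 0.000131, 3.59e-11 and 4.36e-15). Without the day 0 sample of the empty vector the early call was lost.

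Dusp5, which encodes a nuclear phosphatase that switches off ERK and is itself induced by ERK signalling, was higher from the first sample. Dusp5 signal was 556, 713, 744, 628, 956, 1179, 1172 and 1194 on days 0 to 7 against 68.1, 96.5, 239.7, 320.3, 111, 104, 91.6 and 435. The groups did not overlap, although the empty vector reached 320.3 on day 3 and 435 on day 7. The log2 difference was 2.52 ± 0.36 (SE) on days 0 and 1, 1.52 ± 0.34 on days 2 and 3 and 2.67 ± 0.26 on days 4 to 7 (adjusted p = 2.42e-05, 0.00272 and 6.71e-10), and its early call held in all 27 other settings tried, at 1.96 to 3.66.

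App, which encodes the amyloid precursor protein, was higher on every day. App signal was 208, 133, 335, 554, 641, 1046, 1678 and 1666 on days 0 to 7 against 39.6, 60.1, 32.3, 44.9, 42.5, 43.7, 138 and 73.6 in the empty vector. The lowest value of the Tbx3 course, on day 1, was just below the highest of the empty vector, on day 6, and no other samples of the groups overlapped. The log2 difference went from 1.23 ± 0.32 (SE) on days 0 and 1 to 3.25 ± 0.24 on days 4 to 7 (adjusted p = 0.0262 and 1.53e-13), and the early call was lost in 8 of 27 other settings, among them without day 0 of either course. A second App probe set gave 2.93-fold over the course, against 5.44-fold on the one used. Sorl1, which encodes a sorting receptor of amyloid precursor protein, had a log2 difference of -0.95 over the course. Its other 2 probe sets gave -0.11 and 0.10 (adjusted p = 0.796 and 0.677) and the mean of all 3 did not pass (-0.32). Of 17 measured genes of the App family and its processing 2 rose and 2 fell, a share near that of all genes (9.57% higher and 12.7% lower).

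Psmb8, which encodes a catalytic subunit of the immunoproteasome, had a very low signal in both groups on day 0. Psmb8 signal was 18, 142, 365, 578, 640.3, 610.4, 587 and 346 on days 0 to 7 against 17, 47.9, 37.6, 44.4, 55.5, 30.4, 33.8 and 43.9. The samples of day 0 were nearly equal, and from day 1 on every Tbx3 sample was above every empty vector sample. Both day 0 signals lay below the pseudocounts (63.1 on A, 21.8 on B), so a difference there could be missed. The size over the course, 1.96 on the log2 scale, ran from 1.02 to 2.92 in the 28 other settings, and the call held in all of them. The log2 difference was 0.50 ± 0.36 (SE, adjusted p = 0.495) on days 0 and 1, 2.23 ± 0.33 on days 2 and 3 and 2.55 ± 0.26 on days 4 to 7 (adjusted p = 1.27e-05 and 1.42e-09).

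**Figure D2:**
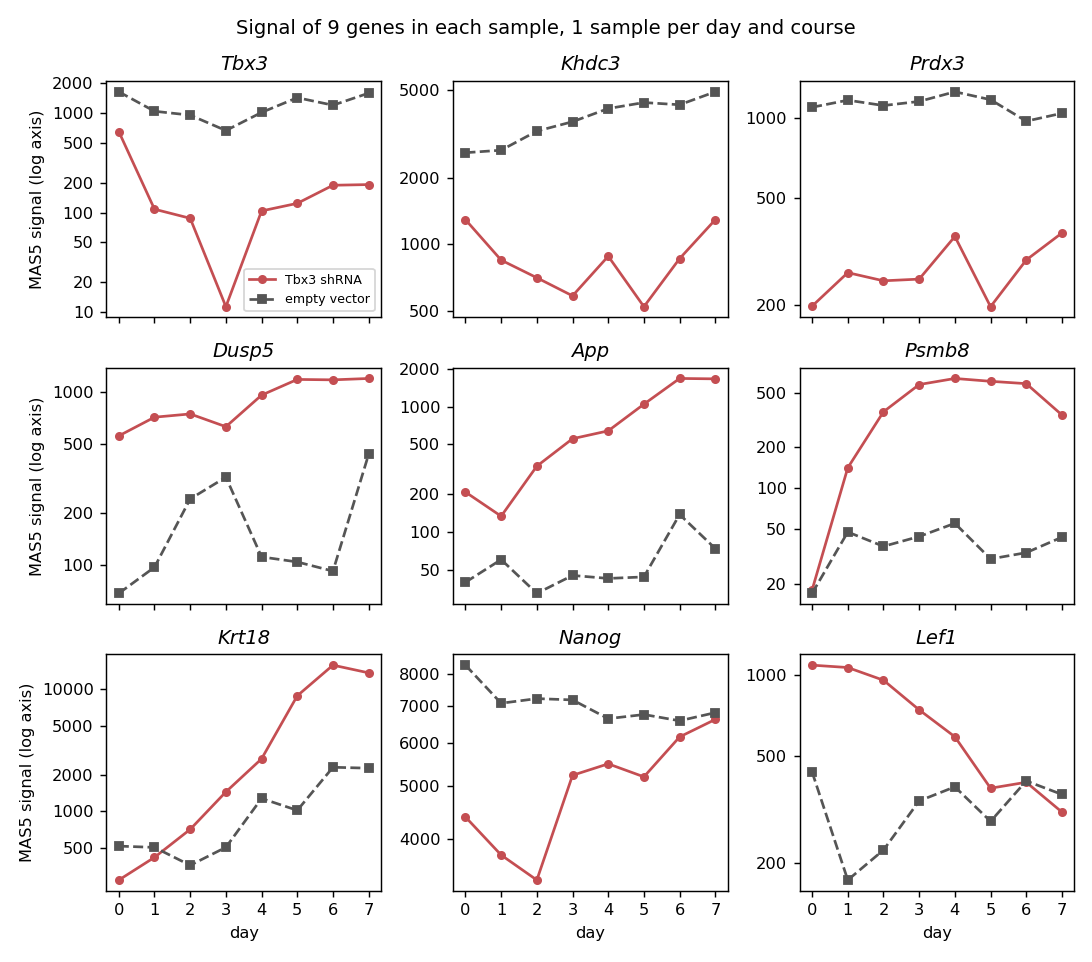
MAS5 signal on a logarithmic axis (vertical) by day (horizontal) for 9 genes, with 1 sample per point, under Tbx3 shRNA (red circles, solid lines) and in the empty vector (grey squares, dashed lines). Prdx3 and Dusp5 were apart from day 0. Psmb8 started level at very low signals and separated from day 1, and Krt18 separated from day 2. Nanog and Lef1 were apart early and met the empty vector by days 6 and 7.

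Promoter sequence was read from RefSeq on GRCm38.p6 for the 11841 genes tested that matched by symbol, over 300 bases with 250 before each listed start site. The core T-box site, searched as TCACACCT on both strands, was present in 1.15% of these genes, in 0.618% of the 1133 matched genes that were higher over the course and in 1.36% of the 1541 that were lower. A shorter form, GGTGTGA on both strands, of which every TCACACCT match holds one, was in 4.26%, 3.44% and 4.48%. The CArG box, the site of serum response factor, was in 1.48% of the genes tested, in 2.82% of the higher and in 1.1% of the lower genes. The element bound by interferon regulatory factors (IRF element) was in 3.45%, 4.77% and 3.05%. These are counts of letters in windows and not of bound sites, and the last 2 patterns were added after the gene groups had been seen.

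The regions before the start sites of 4 genes that rose, Dusp5 and 3 members of groups described next, are shown because they hold these letters, with the match in capitals. Named genes that fell over the course hold them too. Inhbb (-1.58) has an IRF element from -198 to -189 and Mesp2 (-0.63) a CArG box from -217 to -208. The choice of risen genes thus does not tie the letters to rises. Dusp5 holds 2 CArG boxes end to end, from -82 to -63, and Acta1 holds 1 from -73 to -64; B2m holds an IRF element from -139 to -130, and Gbp2 holds one on the opposite strand from -59 to -50. Each sequence is the 250 bases upstream of the start site, 5′ to 3′ on the strand of the gene, at chr19:53528895-53529144 (plus strand) for Dusp5, chr8:123894776-123895025 (minus strand) for Acta1, chr2:122147437-122147686 (plus strand) for B2m and chr3:142620413-142620662 (plus strand) for Gbp2.
Dusp5: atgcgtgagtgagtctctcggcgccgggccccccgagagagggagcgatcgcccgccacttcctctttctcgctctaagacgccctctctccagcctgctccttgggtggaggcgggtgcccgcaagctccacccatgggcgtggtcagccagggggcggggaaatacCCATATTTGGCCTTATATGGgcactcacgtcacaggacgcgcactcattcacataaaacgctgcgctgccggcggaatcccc
Acta1: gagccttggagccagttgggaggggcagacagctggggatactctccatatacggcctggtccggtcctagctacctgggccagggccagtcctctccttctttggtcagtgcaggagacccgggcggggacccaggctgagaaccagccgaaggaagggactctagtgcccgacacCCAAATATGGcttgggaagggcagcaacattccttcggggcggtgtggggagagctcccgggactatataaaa
B2m: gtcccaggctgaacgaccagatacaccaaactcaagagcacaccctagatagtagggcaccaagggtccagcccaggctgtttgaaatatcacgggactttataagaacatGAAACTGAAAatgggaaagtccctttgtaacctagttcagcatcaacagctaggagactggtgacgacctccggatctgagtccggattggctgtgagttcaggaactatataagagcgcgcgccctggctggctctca
Gbp2: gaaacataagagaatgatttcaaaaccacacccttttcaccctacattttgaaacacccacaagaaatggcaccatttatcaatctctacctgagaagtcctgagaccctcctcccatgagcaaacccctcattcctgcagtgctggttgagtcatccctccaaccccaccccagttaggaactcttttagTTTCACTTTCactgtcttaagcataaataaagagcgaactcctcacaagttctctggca

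Among the other regulators of the study, Tcl1, a co-activator of Akt kinases, was called lower in all windows. Its early call (-1.08) was lost without day 0 of either course and with plain window levels in place of curves. Tcl1 signal was 1045, 1035, 930.5, 1020.2, 1564, 882, 1198 and 1577 on days 0 to 7 against 2562, 1792, 2116, 2736, 3079, 2971, 3987 and 3824, lower on 8 of 8 days with no overlap between the groups, and its log2 difference was -1.26 ± 0.14 over the course (SE, adjusted p = 2.68e-09). Nanog, a homeodomain factor of the network, was called lower early but not late. Nanog signal was 4385, 3735, 3361, 5226, 5485, 5193, 6144 and 6614 on days 0 to 7 against 8314, 7080, 7221, 7181, 6635, 6752, 6576 and 6806. Day 7 was nearly level. The log2 difference was -0.94 ± 0.19 (SE) on days 0 and 1, -0.76 ± 0.18 on days 2 and 3 and -0.19 ± 0.14 on days 4 to 7 (adjusted p = 0.00323, 0.00565 and 0.411). The difference between the late and early windows was 0.75 ± 0.24 and did not pass (adjusted p = 0.146). Esrrb, an orphan nuclear receptor, fell by 0.49 ± 0.08 on the log2 scale over the course (SE, adjusted p = 6.5e-06) and was lower on 8 of 8 days. Its other 2 probe sets showed larger falls, of 2.17- and 1.92-fold. Pou5f1 (-0.14 ± 0.11, adjusted p = 0.389), Sox2 (0.20 ± 0.11, 0.181) and Dppa4 (-0.09 ± 0.06, 0.358) did not pass over the course.

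In the pluripotency network 14 of 34 measured genes fell over the course and 2 rose, beside 12.7% and 9.57% of all genes. The median log2 difference was -0.25, against -0.09 for all genes tested. Without day 0 of both courses the count was 10 fallen and 2 risen. Eras, which encodes an embryonic form of Ras, fell by 1.24 ± 0.11 (SE, adjusted p = 1.78e-11) and stayed low, from 1186 on day 0 to 507 on day 7 against 1693 and 1391. Tfcp2l1, a naive-state transcription factor that LIF induces, was low early and nearer the empty vector later. Tfcp2l1 signal was 358, 279, 112, 130, 409.5, 713, 629.7 and 641 on days 0 to 7 against 1964, 710, 777, 557, 855, 896, 792 and 865, lower on all 8 days, with a log2 difference of -1.94 ± 0.29 (SE) on days 0 and 1 and -0.51 ± 0.21 on days 4 to 7, which did not pass (adjusted p = 5.68e-05 and 0.0991). The early calls of Tfcp2l1 and Nanog were both lost without day 0 of either course. Dppa2, a chromatin factor of early embryos, fell by 0.74 and Prdm14, a repressor of FGF signalling in naive cells, by 0.55 over the course; the Prdm14 call held in 17 of 28 other settings.

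Some receptors, ligands and regulators of self-renewal signals also passed. Of 20 genes of the LIF and Stat3 pathway 6 fell and 3 rose over the course, beside 12.7% and 9.57% of all genes. The number fallen went down to 2 when single samples were left out. Lifr, the LIF receptor gene, fell by 0.71 ± 0.20 (SE, adjusted p = 0.00652), and Jak1, the kinase it signals through, rose by 0.61 ± 0.15. The Lifr call was lost without day 0 or day 7 of the empty vector, and both calls without day 0 of both courses. Bmp4, a ligand that with LIF blocks neural fate, was 268 on day 2 and 204 on day 3 against 924 and 779, and level with the empty vector on days 5 and 6. Inhbb, which encodes the activin beta B chain, fell by 1.58 ± 0.13 (SE, adjusted p = 2.64e-12), from 1305 on day 0 to 339.8 on day 3 against 2480.1 and 1689. Another Inhbb probe set gave -0.95. Of 26 genes of the Nodal, activin and BMP pathway 6 rose and 4 fell, beside 9.57% and 12.7% of all genes. Kit, the stem cell factor receptor gene, fell by 0.85 ± 0.13 over the course (SE, adjusted p = 3.49e-06) and was lower on 8 of 8 days.

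Some genes were low on every day from day 0. Prdx3, which encodes the mitochondrial peroxiredoxin, had signals of 198, 264, 246, 249.6, 360.2, 197, 294 and 371 on days 0 to 7 against 1095, 1164, 1112, 1152, 1252, 1169, 972 and 1040.3. Every Tbx3 sample was below every empty vector sample by a wide margin, and the log2 difference was -2.05 ± 0.15 (SE) on days 0 and 1 and -1.72 ± 0.11 on days 4 to 7 (adjusted p = 1.04e-12 and 4.36e-15). The early call of Prdx3 held in all 27 other settings. Galnt1, which encodes an enzyme that starts O-linked glycosylation, had signals of 101, 35.1, 30.7, 27.9, 179.7, 183, 72.5 and 180.1 against 967, 433, 490.2, 312, 546, 438, 495 and 751, with no overlap, and fell by 1.97 ± 0.17 over the course (SE, adjusted p = 5.5e-12). Ei24, a p53-induced gene of the endoplasmic reticulum, fell by 0.92 ± 0.08 and Sesn1, a stress-induced inhibitor of mTORC1 signalling, by 0.84 ± 0.11 (SE, adjusted p = 4.25e-11 and 5.84e-08), both lower on 8 of 8 days and without overlap. A second Sesn1 probe set gave -0.11 (adjusted p = 0.75) and another gave -0.94 (adjusted p = 8.77e-06).

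The same 4 genes were set against the Esrrb and Tcl1 knockdown courses, which share the vector and the days but not the hairpin. These contrasts do not use the empty vector. They reuse the same Tbx3 samples in which the 4 genes were picked as low, so they are not an independent test of the falls. Tbx3 itself was also low in the Esrrb course, with a mean signal of 339 ± 221 (SD, n = 8 days), against 1268 ± 494 in the Tcl1 course. Of the 14749 genes, 11% differed between the Tbx3 and Esrrb courses and 13.2% between the Tbx3 and Tcl1 courses. Prdx3 was lower in the Tbx3 course by 1.76 ± 0.08 than in the Esrrb course and by 2.01 ± 0.08 than in the Tcl1 course (SE, adjusted p = 1.46e-20 and 8.02e-23). Its mean signal was 272.5 ± 66.0 in the Tbx3 course (SD, n = 8 days), 1061 ± 101 in the Esrrb course and 1274 ± 143 in the Tcl1 course. Over the other courses the lowest single sample was 565 (Mm343880 shRNA) against a highest of 371 under Tbx3 shRNA. The whole Mm343880 course was low for Prdx3, at 565 to 784 (mean 687 ± 79, SD, n = 7 days). All its samples were below those of the empty vector (972 to 1252). Galnt1 differed by -1.69 ± 0.17 and -1.66 ± 0.17; its highest Tbx3 sample was 183 and the lowest of any other course 201 (Esrrb shRNA). Ei24 (-0.59 and -0.83) and Sesn1 (-0.62 and -0.50) also passed in both contrasts, but their samples overlapped those of another course. For Ei24 the highest Tbx3 sample was 3335 and the lowest Oct4 shRNA sample 2547. For Sesn1 these values were 459 and 454. The hairpin sequence was not used here, and the loss of Tbx3 and other effects of its hairpin cannot be told apart with these samples.

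Genes of the primed epiblast were called most in the middle of the course. Of 17 measured genes 10 rose over the course and none fell, with a median log2 difference of 0.65, beside 9.57% of all genes higher. In it 3 genes rose on days 0 and 1, 8 on days 2 and 3 (median 0.88) and 4 on days 4 to 7 (median 0.43), against 0.909%, 4.26% and 7.41% of all genes. Lef1, the transcription factor that carries beta-catenin to Wnt targets, had signals of 1093, 1071, 960.2, 745, 592, 381, 401 and 310.3 on days 0 to 7 against 438, 173, 224, 342, 385, 287, 405 and 361. It was higher on days 0 to 5 and no higher on days 6 and 7. Its log2 difference was 1.75 ± 0.31 (SE) on days 0 and 1 and 0.16 ± 0.23 on days 4 to 7 (adjusted p = 0.000617 and 0.709), and the early call was lost without day 0 of the Tbx3 course. Pou3f1 (Oct6), a POU factor of the epiblast, reached 1017 on day 2 against 289.5 and 184 on day 7 against 210, with a log2 difference of 1.52 ± 0.30 on days 2 and 3 (SE, adjusted p = 0.000592). Dnmt3b, a de novo DNA methyltransferase, rose to 9584 on day 3 against 4440.1 and was 3866 against 3204 on day 7, higher on all 8 days with a log2 difference of 1.13 ± 0.14 on days 2 and 3 (SE, adjusted p = 4.95e-07). Over the course another Dnmt3b probe set gave 1.33 against 0.72. Its partner Dnmt3l was 7592 on day 2 and 2334 on day 7 against 4426 and 5071, and was lower on days 4 to 7 by 0.64 (adjusted p = 0.00505), a call that was lost without day 7 of either course.

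Otx2 and Fgf15 crossed the empty vector. Otx2, a homeodomain factor of the anterior epiblast, was 1829 on day 0 and 498 on day 7 under Tbx3 shRNA, against 734 and 1870.3, so that the empty vector ended where the knockdown began. None of its windows passed alone, and the difference between the late and early windows was -1.63 ± 0.40 (SE, adjusted p = 0.0305), a call held in 14 of 27 other settings. Fgf15, a secreted growth factor of the epiblast and early brain, was 885 on day 0 and 260.1 on day 7 against 396 and 512, and was higher by 1.15 ± 0.29 on days 0 and 1 (SE, adjusted p = 0.0207), a call lost without day 0 of either course. The tight junction gene Cldn6 instead kept rising, from 742 on day 0 to 3784 on day 7 against 498 and 1255, with 1.66 ± 0.21 on days 4 to 7 (SE, adjusted p = 1.91e-07). Sox3, a neural and epiblast factor, was higher by 1.69 ± 0.29 on days 2 and 3 (SE, adjusted p = 0.000104) on the probe set used. Over the course a second Sox3 probe set gave -0.02 (adjusted p = 0.972) against 0.78, and the mean of both did not pass.

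Genes of the ERK response moved in both directions. Of 24 measured genes of FGF and ERK feedback 7 rose and 2 fell over the course, beside 9.57% and 12.7% of all genes. Egr1, an immediate early gene, was 2696 on day 0 against 656 and was higher on 8 of 8 days, by 1.11 ± 0.22 over the course (SE, adjusted p = 0.000155), while Etv4, an ETS factor downstream of FGF, was lower on 8 of 8 days, by 0.82 ± 0.20 (adjusted p = 0.0018), a call lost without day 0 of both courses. Another Etv4 probe set gave -0.23 (adjusted p = 0.639). Fgf8, a ligand, rose by 1.14 ± 0.29 on days 4 to 7 (SE, adjusted p = 0.0043), lost without Tbx3 day 6, and of 12 ligand and receptor genes 4 rose and none fell. In the Wnt pathway 7 of 24 genes rose and 2 fell: the receptor gene Fzd2 rose by 1.32 ± 0.10 and the receptor gene Fzd5 fell by 1.02 ± 0.12 (SE, adjusted p = 9.26e-13 and 1.28e-08), and Sp5, a direct Wnt target, rose by 1.75 ± 0.45 on days 4 to 7 (adjusted p = 0.00531), lost without Tbx3 day 5.

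Contractile genes rose without a fall among them. Of 24 measured contractile genes and known targets of serum response factor 17 rose over the course and none fell (median log2 difference 0.70, against -0.09 for all genes), beside 9.57% of all genes higher. Of these 24 genes 3 rose on days 0 and 1, 9 on days 2 and 3 and 17 on days 4 to 7 (median 1.09). The shares of all genes higher were 0.909%, 4.26% and 7.41%. Leaving out single samples gave 16 to 19 risen genes over the course and 15 to 17 on days 4 to 7. Acta2, smooth muscle actin, had signals of 967, 1708, 3572, 5548, 4621, 6404, 7076 and 5103 on days 0 to 7 against 795, 1040, 1417, 1590.5, 1879, 1863, 1505 and 1039.8. It was higher on every matched day, close to the empty vector on day 0 and above its highest sample from day 2 on, with 1.90 ± 0.25 on days 4 to 7 (SE, adjusted p = 2.29e-07). Over the course another Acta2 probe set gave -0.43 (adjusted p = 0.274) against 1.43. Acta1, skeletal muscle actin, had signals of 238, 86.2, 593, 1108, 873, 3109.8, 3037 and 1275 against 71.5, 53.7, 72.7, 253, 266, 473, 372 and 169, and rose by 1.89 ± 0.24 over the course (SE, adjusted p = 6.86e-08). Tagln, an actin-binding protein of smooth muscle, rose by 2.21 ± 0.35 on days 4 to 7 and reached 5545 on day 5 against 760.3. Ccn2, a secreted matrix protein and target of YAP and serum response factor, was already higher on day 0, at 1462 against 828. It rose by 1.55 ± 0.12 over the course (SE, adjusted p = 9.26e-13), without overlap between the groups. Its early call (0.84) was lost in 8 of 27 other settings, among them without day 0 of either course.

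The Tbx3 course lay below the Esrrb and Tcl1 courses for the actins. Acta1 was lower in the Tbx3 course than in the Esrrb course by 1.47 ± 0.24 and than in the Tcl1 course by 0.92 ± 0.24 (SE, adjusted p = 2.95e-05 and 0.00605), and Tagln by 1.79 and 0.89. Mean Acta2 signal was 4375 ± 2163 in the Tbx3 course, 10840 ± 5765 in the Esrrb course and 8433 ± 5043 in the Tcl1 course (SD, n = 8 days each). A CArG box was in 5 of 19 genes of the list with a known promoter, Acta1, Cnn2, Myl9, Vcl and Srf, a share of 26.3% beside the 1.48% of genes tested; the list was drawn up partly from known targets of serum response factor, so this share describes the list. Of the 5, Acta1, Cnn2, Myl9 and Vcl passed over the course and Srf had 0.25 (adjusted p = 0.0511).

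Of 18 measured genes of the immunoproteasome and MHC class I, Psmb8 among them, 9 rose over the course and none fell (median log2 difference 0.43), beside 9.57% of all genes higher. On days 2 and 3 it was 7 genes and on days 4 to 7 it was 8, against 4.26% and 7.41% of all genes. B2m, the light chain of MHC class I, had signals of 498, 566, 1176, 1334, 1775, 2190.4, 2708 and 2334 on days 0 to 7 against 658, 740.4, 361, 557, 653, 505, 946 and 648. It was below the empty vector on days 0 and 1 and above it on each later day, with 1.65 ± 0.22 on days 4 to 7 (SE, adjusted p = 5.36e-07). Tapbp, the tapasin gene of peptide loading, rose by 1.17 ± 0.11 and Psmb10, another immunoproteasome subunit, by 0.85 ± 0.12 over the course (SE, adjusted p = 1.08e-10 and 3.24e-07). The heavy chains did not pass: H2-K1 had 0.08 (adjusted p = 0.775) and H2-D1 0.29 (adjusted p = 0.243). Among 27 interferon response genes 4 rose and 4 fell, near the shares of all genes. Gbp2, an interferon-induced GTPase, rose from 218 on day 0 to 1242 on day 6 against 162 and 72.5, with 1.71 ± 0.16 over the course (SE, adjusted p = 1.07e-10). Irf1, a transcription factor of the class I pathway, rose by 0.76 ± 0.11 and was higher on 8 of 8 days without overlap, whereas Parp14 fell by 1.09. The Parp14 call was lost without the filter on low signals (-0.16, adjusted p = 0.553). The IRF element was in 3 of 15 antigen-processing genes with a known promoter (Psme1, B2m and Erap1), 20% beside 3.45% of genes tested. Psme1 and B2m passed over the course and Erap1 did not (0.43, adjusted p = 0.0929). The risen genes Psmb8, Tapbp and Psmb10 had no match, so this share describes the list and not its rises.

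The late window brought a separate set. Krt18, a keratin of simple epithelia and trophectoderm, had signals of 271, 417, 708, 1439.5, 2693, 8878, 15851 and 13699.6 on days 0 to 7 against 516, 504, 359, 504, 1272, 1015, 2294 and 2255, and its partner Krt8 had 341, 446, 442, 779, 1241, 7845, 11286 and 11209 against 589.8, 685, 442, 594, 1013, 1285, 2389 and 1409.5. Both were below the empty vector on days 0 and 1 and climbed steeply between days 4 and 5. On days 4 to 7 the log2 difference was 2.43 ± 0.21 for Krt18, 2.05 ± 0.26 for Krt8, 3.02 ± 0.41 for Krt19 and 2.50 ± 0.33 for Krt7 (SE, adjusted p = 3.27e-11, 2.01e-07, 5.02e-07 and 2.82e-07). Over the course another Krt8 probe set gave 1.54 against 0.89. Of 26 trophectoderm genes 10 rose and 1 fell on days 4 to 7, against 1 risen on days 0 and 1, beside 7.41% and 0.909% of all genes higher. Of 7 trophoblast markers the group means of Eomes and Hand1 were above the table median in both groups, those of Krt7 and Krt19 only under Tbx3 shRNA, and those of Cdx2, Gata3 and Elf5 in neither. The summed signal of the 7 ran from 848.5 to 9831 under Tbx3 shRNA and from 919.5 to 2237 in the empty vector. The part of other cell types in these rises was not tested.

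Igf2, an imprinted growth factor gene, rose with the keratins: its signal was 276, 126, 385, 547, 1022, 3648, 8307 and 13177 on days 0 to 7 against 269.8, 284, 144, 291, 557, 693, 1096 and 853. It ended as the highest value of either group, with 2.50 ± 0.26 on days 4 to 7 (SE, adjusted p = 3.37e-09). Over the course another Igf2 probe set gave 0.41 (adjusted p = 0.209) against 1.36. Anxa1, which encodes a phospholipid-binding annexin, stepped from 397 on day 4 to 3124 on day 5, while the empty vector stayed at 318 or less. Anxa3 stepped likewise from 615 to 2258, and S100a6, a calcium-binding protein, was lower on days 2 and 3 (log2 -0.88 ± 0.23) and higher on days 4 to 7 (1.32 ± 0.18; SE, adjusted p = 0.0111 and 5.02e-07). Sfn, the epithelial 14-3-3 protein and p53 target, reached 2649.9 on day 5 against 446. Col1a2, a chain of type I collagen, was level with the empty vector through day 2 and reached 4003 on day 7 against 471 (2.10 ± 0.24 on days 4 to 7, SE, adjusted p = 1.92e-08). Of 8 fibroblast markers the mean signals of Col1a2 and Thy1 were above the table median in both groups, and those of Col1a1, Col3a1, Postn, Dcn, Lum and Pdgfrb below it. Their sum ran from 1046 to 5598 under Tbx3 shRNA and from 1110 to 2096 in the empty vector, and their part in the result was not tested.

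**Figure D3:**
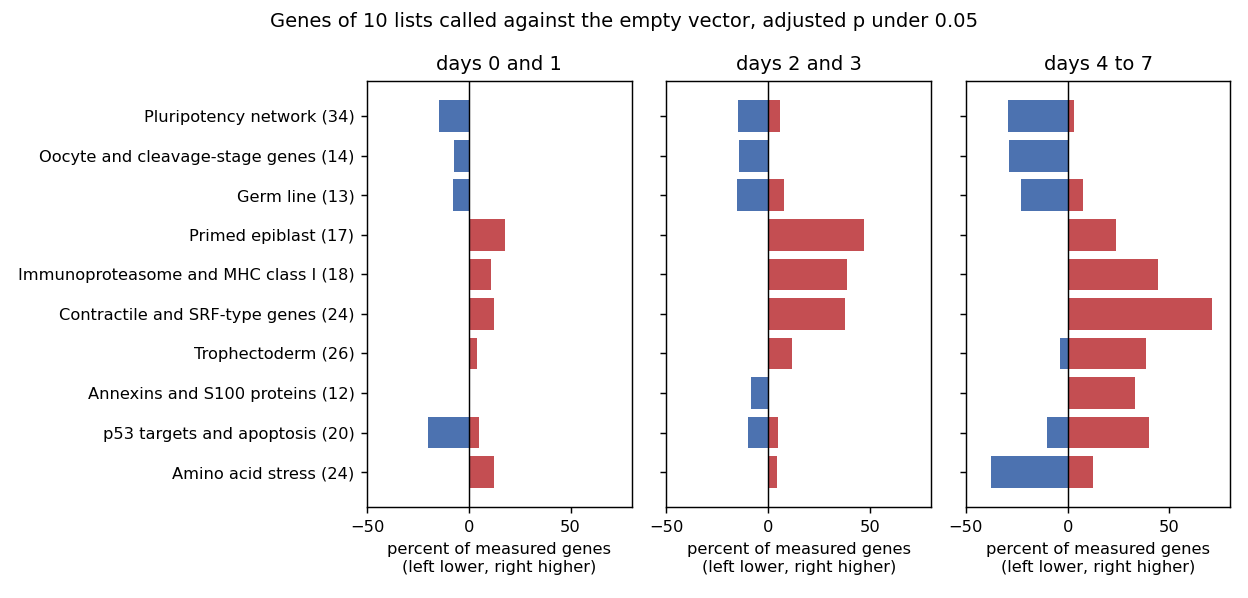
Percent of the measured genes of 10 lists (rows, number measured in brackets) that were called higher (red, to the right) or lower (blue, to the left) than in the empty vector at an adjusted p under 0.05 on days 0 and 1, days 2 and 3 and days 4 to 7. Primed epiblast genes were called most on days 2 and 3 (8 of 17), and contractile (17 of 24) and trophectoderm genes (10 of 26) on days 4 to 7.

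Several inhibitors of the cell cycle rose. Of 23 G1 cyclins and inhibitors 7 rose and 2 fell over the course. Cdkn1c, an imprinted inhibitor of cyclin-dependent kinases, was 509 on day 0 against 182 and 2518 on day 7 against 415, higher on 8 of 8 days by 1.49 ± 0.14 over the course (SE, adjusted p = 1.18e-10). Cdkn2b, the p15 inhibitor gene, had signals of 426, 441, 353, 350.5, 456, 719.8, 1063 and 785 on days 0 to 7 against 43, 356, 370.4, 188, 121, 44.4, 173 and 62.9, so it was apart on day 0 and again from day 3, and nearer the empty vector on days 1 and 2. Cdkn2a, at the same locus, rose by 0.70 ± 0.10 and the cyclin gene Ccnd2 by 0.74 ± 0.14 (SE, adjusted p = 5.33e-07 and 6.37e-05). Of 25 genes of mitosis and DNA replication 3 rose and 2 fell (median log2 difference 0.03), near the 9.57% and 12.7% of all genes, and 0 to 4 rose when single samples were left out.

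Among 20 p53 targets and apoptosis genes 8 rose and 4 fell over the course, beside 9.57% and 12.7% of all genes, and their timing differed. Bcl2l11, a pro-apoptotic BH3 protein, rose by 0.90 ± 0.09 (SE, adjusted p = 7.71e-10) and was higher on 8 of 8 days. Plk2, a stress-induced kinase, was 2215 on day 0 and 1841 on day 7 under Tbx3 shRNA, against 2449 and 402, a log2 difference of 1.85 ± 0.23 on days 4 to 7 (SE, adjusted p = 7.69e-08). Over the course another Plk2 probe set gave -0.16 (adjusted p = 0.561) against 0.94. Genes of amino acid stress went the other way late, with 9 of 24 lower and 3 higher on days 4 to 7, beside 8.42% and 7.41% of all genes. Chac1, an enzyme that degrades glutathione, was 905 on day 0 and 465 on day 7 against 448 and 1931, and Psph, an enzyme of serine synthesis, was lower by 0.84 ± 0.13 on days 4 to 7 (SE, adjusted p = 7.86e-06). Without day 7 of the Tbx3 course 2 genes of this list were lower and 1 higher.

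Of 14 measured oocyte and cleavage-stage genes 5 fell, Khdc3 among them, and none rose, and of 13 germ line genes 5 fell and 1 rose, beside 12.7% of all genes lower. Leaving out single samples gave 3 to 5 and 2 to 6 fallen genes. Ooep, which encodes a partner of Khdc3 in the maternal complex, fell by 0.87 ± 0.12 (SE, adjusted p = 2.1e-07) and was lower on 8 of 8 days; Padi6, another member of this complex, fell by 1.05. The Padi6 call was lost under 5 of 28 other settings, among them those without Tbx3 day 0, 4 or 7. Rhox5, a homeobox gene of germ cells and early embryos, dipped from 2805 on day 0 to 1004 on day 3 and was back at 2909 on day 7, against 2578 to 3741 in the empty vector. Khdc3 was lower still in the Esrrb course, where Tbx3 signal was also low. The Tbx3 course was higher than the Esrrb course by 1.04 ± 0.11 and lower than the Tcl1 course by 1.69 ± 0.11 (SE, adjusted p = 7.05e-09 and 2.25e-15). App (0.18 ± 0.17, adjusted p = 0.573), Psmb8 (0.37 ± 0.19, 0.224) and Dusp5 (-0.14 ± 0.19, 0.713) did not pass against the Esrrb course, while App and Psmb8 were higher than in the Tcl1 course by 1.21 and 1.15.

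Outside the lists, further falls over the course were those of Islr2, a neuronal membrane protein (-1.98 ± 0.26), Nkain4, a partner of the sodium pump (-1.92 ± 0.27), Epha4, an ephrin receptor (-1.82 ± 0.23) and Tesc, a calcium-binding protein (-1.79 ± 0.21; SE, adjusted p between 1.67e-08 and 4e-07). Over the course the other 3 Epha4 probe sets gave -0.50, -0.20 and -0.08, and their mean with the one used was -0.65. Islr2 was 40.2 to 70.8 under Tbx3 shRNA and 209 to 452 in the empty vector, without overlap. Further rises were those of Chst15, a sulfotransferase of chondroitin sulfate (1.89 ± 0.20), Tmem125 (1.87 ± 0.24), Cds1, an enzyme of phospholipid synthesis (1.71 ± 0.28) and the zinc finger gene Zfp1 (1.64 ± 0.20; SE, adjusted p between 1.06e-09 and 1.13e-05). Over the course a second Tmem125 probe set gave -0.81 (adjusted p = 0.0646), the other direction, and with the mean of both the call on days 4 to 7 was lost. Chst15 was 129 to 436 under Tbx3 shRNA and 11.8 to 32.7 in the empty vector. In the 28 other settings its log2 difference over the course ran from 0.82 to 3.53, and that of Nkain4 from -3.07 to -0.95. Both calls held, but these sizes depended on the processing far more than the SE shows.

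A last contrast asked which genes changed between the early and late windows beyond the empty vector. It called 103 genes higher (0.698%) and 22 lower (0.149%), of which 100 were also called on days 4 to 7, 84 as higher and 16 as lower. Krt19 had 3.44 ± 0.69, Krt18 2.88 ± 0.36 and Anxa3 2.42 ± 0.39 (SE, adjusted p = 0.0064, 8.23e-06 and 0.000631), and Lef1 fell by 1.59 ± 0.39 and Chac1 by 2.08 ± 0.45 (adjusted p = 0.0323 and 0.0122). After quantile normalization 47 genes were higher and 31 lower. This contrast rests on the day 0 samples and the curves: 2 genes were called without day 0 of the empty vector, 15 without that of the Tbx3 course and 0 by limma with plain window levels in place of curves, where 967 genes had an unadjusted p under 0.05.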

How the data were processed

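RNA from sorted cells was labelled as biotin cRNA and hybridised to the A and B arrays of the Affymetrix mouse 430 set. The deposited values are linear MAS5 signal intensities, per the submitters' processing notes. No version of MAS5 is stated there. Each array had been scaled by the authors so that the 2% trimmed mean of the 100 control probe sets shared by both arrays was 2500, as the deposited intensities show. Of 45265 probe sets, 35041 name 1 gene in the platform annotation, 936 several and 9160 none. Probe sets above the table median (283.3 on A, 89.2 on B) on at least 3 of 70 arrays were kept, and each gene was read from 1 probe set, that of highest average percentile rank, which left 14749 genes. Of 146 other probe sets of named genes, 41 differed by over 1.5-fold from the one used, and 1 was called in the opposite direction.

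Tests used limma 3.58.1 in R 4.3.3 on log2(signal + pseudocount), with the 20th percentile of each table as the pseudocount (63.1 on A, 21.8 on B), day as a spline (3 degrees of freedom) within each of the 9 courses, all 70 samples, and Benjamini-Hochberg adjustment over all genes at 0.05. Contrasts were the mean of the curves over days 0 to 7, days 0 and 1, days 2 and 3 and days 4 to 7, and the late minus early difference. SDs are over days. The script was tested on simulated data. The number of arrays limits the precision. Named genes were the regulators and markers of the comparison, per contrast the 8 largest rises and 8 largest falls that passed with one sign on every day of the window, and up to 4 passing and 2 other members of each of 30 gene lists; a few further list members (Cnn2, Myl9, Vcl, Srf, Psme1, H2-K1 and H2-D1) were named after their values were seen. Members and lists were chosen with earlier results of these data known. Pseudocount, filter, normalization, probe set rule, spline, samples fitted, a day block and each left-out sample were varied.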

Additional observations from a re-analysis of the deposited data

How the results depend on the processing

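Of 129 course-mean differences of named genes 101 kept their direction and call in every processing alternative and 99 with each sample left out in turn; for the late window these were 82 and 73 of 116, for the early window 10 and 2 of 45, and for the late minus early difference 0 and 1 of 31. The cause of the changes below was not tested. Counts of called genes with all probe sets tested singly were 5900 for the course mean, 711 early, 1571 in the middle and 3894 late, over more features. With a spline of 2 degrees of freedom 261 genes were called early and 46 for the late minus early difference, and with plain window levels 76 early, 281 in the middle, 1531 late and 0 for the late minus early difference by limma (967 at an unadjusted p under 0.05). Fitting only these 16 samples gave 71, and quantile normalization 78, for the late minus early difference, whose median over all genes moved from 0.09 to -0.04. Leaving out 1 sample gave 2395 to 3256 genes for the course mean, 9 to 437 early, 402 to 995 in the middle, 1266 to 2327 late and 2 to 138 for the late minus early difference. Without day 0 of both courses, an alternative chosen after seeing the data, the course mean had 1758. The share of genes at least 2-fold different was 14.7%, 12.8%, 13.6%, 14.1%, 13% and 15.4% on days 0 to 5 with a pseudocount of 1, and 2.79%, 1.74%, 2.35%, 2.81%, 2.22%, 2.99%, 4.43% and 3.89% on days 0 to 7 with the table median, so these shares depend on how low signals are treated. With a 2-fold onset, 7% of higher and 21.7% of lower genes had theirs on day 0. The shorter T-box form was in 3.44% of higher and 4.48% of lower genes. Leaving out 1 sample put the early Tbx3 difference between -2.28 and -1.90; the call was lost without day 0 of the Tbx3 course (-2.28) or of the empty vector (-2.11). As the mean of all probe sets, Vldlr turned to -0.16 over the course and -0.024 late, and Spred2 to -0.046 late.

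The labels pair the samples of the courses only by the number of the day. Same-day deviations correlated at -0.01 to 0.27, over 0.1 on 6 of 8 days, and 4 of 8 samples matched their own day best. With day as a replicate block 203 genes were called early, 517 in the middle, 2015 late, 3118 for the course mean and 2 for the late minus early difference.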

Other observations

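Other gene lists gave these counts. Over the course 3 of 23 genes of PI3K and insulin signalling rose and 6 fell, 4 of 24 extraembryonic endoderm genes rose and 2 fell, and 2 of 16 mesoderm genes rose and 2 fell. Of 14 neuroectoderm genes 3 rose and 1 fell, and of 21 retinoic acid response genes 1 rose and 1 fell. In DNA methylation 1 of 12 genes rose and 4 fell, in hypoxia and glycolysis 1 of 23 rose and 2 fell, and in sterol and fatty acid synthesis 2 of 20 rose and 2 fell. Of 10 measured T-box genes only Tbx3 itself passed. Among 12 annexins and S100 proteins 4 rose on days 4 to 7 and none fell, and among 16 fibroblast genes 4 rose and 1 fell in that window. Over all genes 9.57% were higher and 12.7% lower over the course, and 7.41% were higher and 8.42% lower on days 4 to 7.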
